A study of Drosophila melanogaster with 3 samples.

Results

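The Wingless and Hedgehog pathways were examined through 10 of their core genes. These were the ligands wg, Wnt4 and hh, the receptors and receptor components fz, fz2, arr, ptc and smo, and the effectors arm and ci. The genes were taken by name and not by a rule on their peaks, out of 13945 protein-coding genes on chromosomes 2L, 2R, 3L, 3R, 4 and X. Earlier results of these data were known when the list was set. The data are chromatin immunoprecipitation and sequencing (ChIP-seq) peak lists for topi, a zinc-finger protein of tMAC, the complex that turns on spermatocyte genes in the fly testis. Whole white prepupae of Drosophila melanogaster, males and females pooled, carried a topi transgene with GFP at its C terminus, and an anti-GFP antibody was used for the immunoprecipitation. All libraries were of this 1 group, as biological replicates 1, 2 and 3. The study had no untagged animals among its libraries, so binding of topi and peaks that would form without it cannot be told apart. A whole animal mixes tissues, so the cells that gave a peak are not known. Beyond the replicate numbers, the labels do not say that the animals were collected separately, so the spread between replicates may be technical.

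In both pathways a secreted ligand controls the fate of a transcription regulator. Wg and other Wnt ligands bind frizzled receptors together with the coreceptor Arr, which stabilizes Arm, the fly beta-catenin, and lets it act with the DNA-binding protein Pan. Hh binds Ptc and relieves the block that Ptc places on Smo, after which the zinc-finger protein Ci acts as an activator and not as a cleaved repressor. Both pathways pattern the imaginal discs, which evert at this stage, and Hh from the hub acts on cyst stem cells in the testis.

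Each gene was given a territory, from its first to its last base plus all positions within 10000 bp of one of its transcription start sites (TSSs). The summits of the irreproducible discovery rate (IDR) set, 8424 peaks that passed the authors' reproducibility threshold, were counted in it. A summit was called promoter where a TSS, whichever gene it belonged to, lay within 500 bp, and otherwise exon, intron or intergenic. All 10 territories held IDR summits, as did 67.5% of all protein-coding genes. In the strongest peaks of replicates 1, 2 and 3, 10 of 10 did each time, against 67.4%, 68.9% and 68.7%. The 64 summits lay mostly in introns, and 2 of the 10 genes, fz2 and arm, had one within 500 bp of a TSS of their own.

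The strongest IDR summit of 7 territories and the strongest intron summit of arm are shown first, so that a window stands for each of these 8 genes. The windows of arr and ptc, which include the highest signal of the 64, are not shown. Each is the plus strand of dm6 from 50 bp before to 50 bp after the summit. The windows were chr2L:7313617-7313717 in the wg intron, chr2L:7262107-7262207 in a Wnt4 intron and chr3R:23148535-23148635 upstream of hh. Those of the receptors were chr3L:14304024-14304124 in a fz intron, chr3L:19172492-19172592 in a fz2 intron and chr2L:286567-286667, downstream of smo at the promoter of its neighbour CG3625. The strongest summit near arm lay in the untranslated part of Edem1, so its strongest intron summit is given at chrX:1897546-1897646. The window of ci was chr4:60323-60423, in an exon of the antisense RNA asRNA:CR43957. Capitals mark TGTCA, the core preferred by the TGIF-class proteins achi and vis, which associate with tMAC members, and 27% of all IDR summits had it within 100 bp on either strand.
wg intron: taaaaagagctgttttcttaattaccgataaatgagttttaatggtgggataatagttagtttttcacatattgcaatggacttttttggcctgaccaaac
Wnt4 intron: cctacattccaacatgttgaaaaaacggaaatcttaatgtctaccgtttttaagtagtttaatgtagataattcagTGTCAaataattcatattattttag
hh upstream: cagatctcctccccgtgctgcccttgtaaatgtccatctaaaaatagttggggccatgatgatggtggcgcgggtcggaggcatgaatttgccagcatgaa
fz intron: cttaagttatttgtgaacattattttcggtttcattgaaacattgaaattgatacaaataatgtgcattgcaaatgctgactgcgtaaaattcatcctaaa
fz2 intron: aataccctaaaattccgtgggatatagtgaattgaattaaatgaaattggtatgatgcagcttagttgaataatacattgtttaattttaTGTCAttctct
smo downstream: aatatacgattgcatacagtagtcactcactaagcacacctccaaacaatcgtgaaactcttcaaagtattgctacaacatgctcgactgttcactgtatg
arm intron: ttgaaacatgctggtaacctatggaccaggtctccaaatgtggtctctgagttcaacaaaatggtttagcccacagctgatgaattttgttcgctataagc
ci upstream: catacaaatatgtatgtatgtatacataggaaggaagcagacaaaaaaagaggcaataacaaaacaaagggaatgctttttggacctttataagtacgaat
GC content of these windows lay between 26.7% at Wnt4 and 52.5% at hh. Across the 64 summits, within 100 bp, the median GC content was 34.3%, and it was 34.3% over all IDR summits.

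A further set of 4 windows was chosen after the values were seen. The first pair holds the IDR summits at the genes' own promoters, at chr3L:19170649-19170711 for fz2, with 38 untranslated bases left out, and at chrX:1900224-1900324 for arm. The other pair holds matches to the binding sites of the pathways' own transcription factors, within 100 bp of the summit. One is upstream of hh at chr3R:23149136-23149336, with TGGGTGGTC, the Ci and GLI consensus, in capitals as its reverse complement. The other is in a fz2 intron at chr3L:19194146-19194346. There the capitals mark GAGAG, the GAGA factor core, and then CTTTGAT, the site of Pan, on the minus strand.
fz2 own promoter: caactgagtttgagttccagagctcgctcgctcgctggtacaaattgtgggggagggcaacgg
arm own promoter: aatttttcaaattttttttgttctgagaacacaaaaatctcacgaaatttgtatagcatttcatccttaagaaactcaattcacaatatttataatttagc
hh upstream with Ci match: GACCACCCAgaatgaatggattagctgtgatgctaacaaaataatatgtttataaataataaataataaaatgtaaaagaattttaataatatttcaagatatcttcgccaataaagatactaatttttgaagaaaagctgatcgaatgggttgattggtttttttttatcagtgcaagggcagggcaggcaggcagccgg
fz2 intron with Pan match: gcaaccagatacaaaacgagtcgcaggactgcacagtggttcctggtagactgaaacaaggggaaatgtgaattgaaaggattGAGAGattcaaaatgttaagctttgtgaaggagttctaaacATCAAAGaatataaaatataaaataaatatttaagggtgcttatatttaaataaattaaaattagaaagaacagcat
The Ci match upstream of hh ran from 23149136 to 23149144, and its centre was 96 bp from the summit, so it lay at the edge of the window searched. The Pan match in fz2 was centred 27 bp from its summit. Of all 8424 IDR summits, 3 had the Ci consensus, and 1 of these 3 was the hh summit. A match describes letters and does not show that Ci or Pan was bound.

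The 10 territories covered 415 kb and held 64 IDR summits, or 1.54 per 10 kb. No summit fell in more than 1 member's territory, and 47 of the 64 lay inside a member gene. Receptors held 51 summits in 298 kb, or 1.71 per 10 kb. Effectors held 5 summits in 41.8 kb, or 1.2 per 10 kb, and ligands 8 in 75.5 kb, or 1.06 per 10 kb. Counted in each replicate's 8424 strongest peaks, receptors had 1.66 ± 0.118 summits per 10 kb (SD, n = 3), effectors 1.2 ± 0 and ligands 1.06 ± 0.35. The effector SD is 0 because each replicate held 5 summits, which were not all at the same places. In replicates 1, 2 and 3, arm had 3, 4 and 4 of them and ci 2, 1 and 1. Ligand values were 1.32, 0.662 and 1.19 per 10 kb in replicates 1, 2 and 3, and receptor values were 1.64, 1.54 and 1.78. With all summits of the territories counted, receptors were above ligands in every replicate. Effectors were below the ligands in replicate 1, above them in replicate 2 and nearly level in replicate 3, at 1.2 against 1.19. By gene, the receptors ranged from 1.01 per 10 kb at fz2 to 3.28 at arr, and the ligand hh at 1.69 was above fz and fz2, so the roles overlap. The order of receptors and ligands also rests on summits closer to other genes. Counting only IDR summits whose closest protein-coding TSS was the member's, ligands had 0.927 per 10 kb, receptors 0.738 and effectors 0.717.

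**Figure D1:**
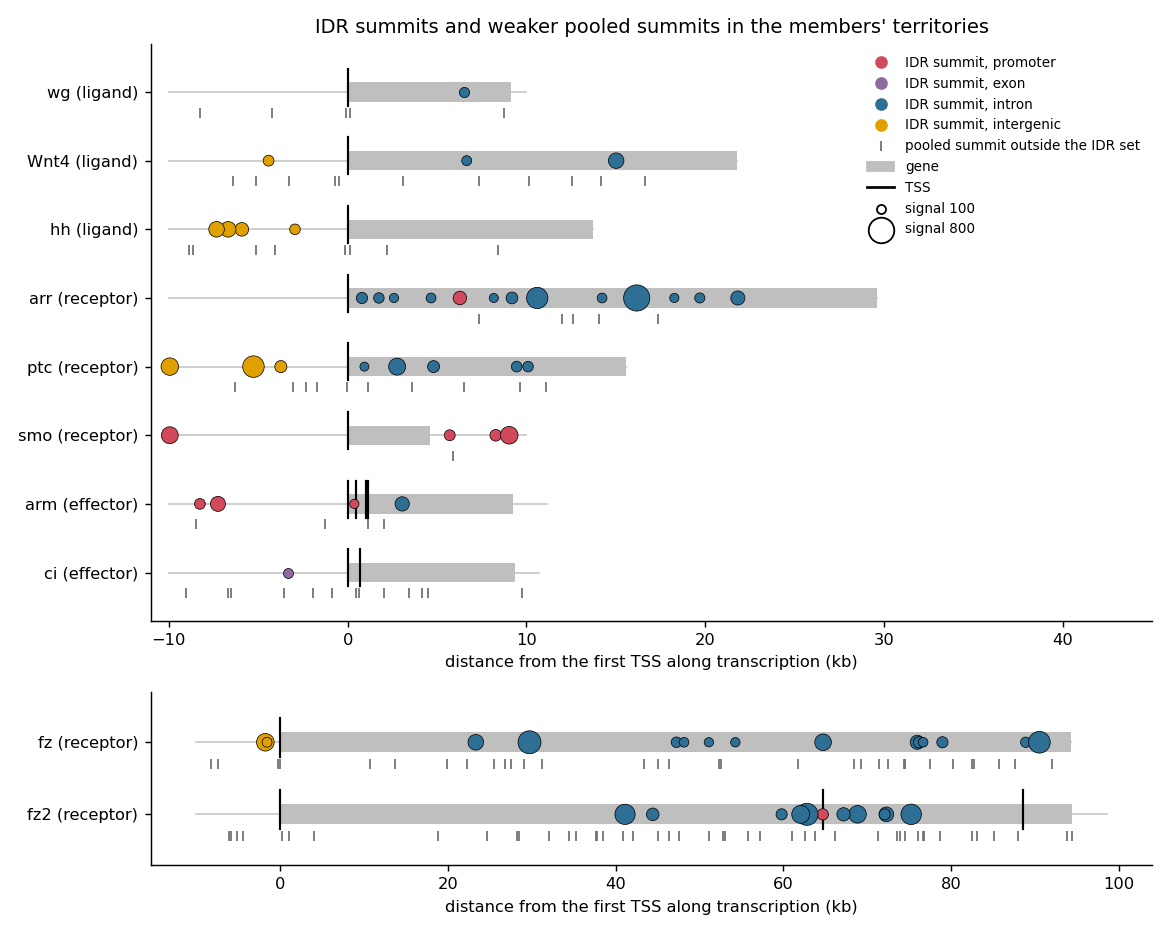
Each row is 1 gene, drawn from its first TSS along the direction of transcription in kb, with the gene as a grey bar and black lines at its TSSs. Circles are IDR summits coloured by class, with an area proportional to the authors' signal, and grey ticks are pooled summits outside the IDR set. Of the 15 fz summits 13 lie in introns, and of the 11 fz2 summits 10 do, all 4 hh summits lie upstream of the gene, and the 4 summits of the smo territory lie outside smo at other promoters.

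The ligand wg had 1 IDR summit, in its intron, 6508 bp downstream of the TSS. Its signal, the enrichment score that the authors gave each peak, was 128, and its peak ranked 6279, 6393 and 8243 in replicates 1, 2 and 3. The rank is used to compare replicates because signal is not scaled between lists. Its 0.5 summits per 10 kb equalled the median protein-coding gene. Within 500 bp of the wg TSS the strongest pooled summit ranked 14836 of 30000, with a signal of 48, below the weakest IDR signal of 93.7. Each replicate listed a summit there, at best ranks 13035, 11505 and 12761.

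Wnt4, a Wnt ligand gene next to wg on 2L, had 3 IDR summits, 1 of them 4422 bp upstream and 2 in introns. The strongest, with a signal of 294, lay 15014 bp into the gene and ranked 2071, 2381 and 2709 in the replicates. The summit at 6657 bp had a signal of 122, and its ranks were 5683, 9046 and 5399. The upstream summit had a signal of 144 and ranks of 3211, 9291 and 5889. All replicates thus placed the first of these within rank 8424, and replicate 2 was the low one for the other pair.

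The gene for the ligand Hedgehog had 4 IDR summits, none inside the gene. They lay 2946, 5915, 6679 and 7330 bp upstream of its TSS, and no TSS of another gene was closer to any of them. The signals were 139, 226, 297 and 297 in that order. The summit at 6679 bp ranked 2011, 2318 and 2232 in replicates 1 to 3, and that at 7330 bp, which holds the Ci match shown above, ranked 2392, 2512 and 2055. The summit at 5915 bp ranked 3106, 4047 and 3060. These 3 summits lie within the 8424 strongest peaks of all replicates. The one closest to the gene ranked 9657 in replicate 2 and was below that limit there. Intron DNA, of hh or of another gene, made up 47.9% of the hh territory, and no IDR summit was listed in it.

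The Wg receptor gene fz held the most summits of the 10, with 15 in a territory of 104297 bp. Of these, 13 were in introns and 2 were 1780 and 1577 bp upstream, in 1 shared interval. The strongest, 29731 bp into the gene, had a signal of 646 and ranks of 632, 543 and 703. A second, 90554 bp from the TSS near the far end, had a signal of 577 and ranks of 929, 648 and 972. Signals of the other 13 ran down to 106. Per 10 kb, fz had 1.44 summits, above 75.9% of protein-coding genes, and in number above 99.7% of them. The gene is 94297 bp long.

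The second Wg receptor gene, fz2, has 3 TSSs and held 11 summits, all inside the gene. The 10 intron summits all lay within 23598 bp of the second TSS, which is 64725 bp from the first, the nearest to the first TSS at 41127 bp. Those with the highest signals, 596, 512 and 501, lay 1894 bp upstream, 10536 bp downstream and 23598 bp upstream of that TSS. In replicates 1, 2 and 3 the strongest ranked 676, 922 and 730. The summit at 10536 bp ranked 1574, 723 and 1096, and the one at 23598 bp, with the Pan match, ranked 1426, 666 and 1425. The own-promoter summit lay 13 bp upstream of the second TSS, with a signal of 157. Its ranks were 13018, 3044 and 5293, so replicate 1 was far below the other two. The fz2 territory had 1.01 summits per 10 kb, above 73.1% of protein-coding genes.

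The coreceptor gene arr, the fly LRP5/6 gene, was the densest of the 10 at 3.28 summits per 10 kb, above 98.4% of protein-coding genes. Its 13 summits all lay inside the gene, 12 of them classed as intron and 1 as promoter, 389 bp from the TSS of CG43192, a gene nested within arr. The summit 16162 bp from the arr TSS had a signal of 841, the highest of the 64, and was number 378 of the IDR set. It ranked 427, 319 and 405 in the replicates. The next, at 10601 bp, had a signal of 555, and its ranks were 562, 1418 and 776. The other 11 had signals from 102 to 242. At 1 of them, 8173 bp from the TSS, the ranks were 10807, 8498 and 9270, outside the strongest 8424 in every replicate, and this was the 1 summit of the 64 with no such replicate.

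The Hh receptor gene ptc is itself switched on by Hh signalling and had 8 IDR summits, or 3.13 per 10 kb, above 98.3% of protein-coding genes. Of these, 3 were upstream and 5 were in introns. The strongest, 5266 bp upstream, had a signal of 568, and its ranks were 705, 601 and 1037. The summit 9945 bp upstream had a signal of 374, and its peak ranked higher in replicates 1 and 3, at 384, 617 and 513 in replicates 1 to 3. A TSS of another gene, 7742 bp away, was closer to this summit than that of ptc. The strongest intron summit, at 2768 bp, had a signal of 353 and ranks of 1273, 2483 and 2021. At the ptc TSS, a pooled summit 30 bp upstream had a signal of 92.4 and pooled rank 8534, just outside the IDR set, while 93.7 was the weakest signal inside it. The intron summit at 938 bp had the lowest signal of the 64, 99, and ranks of 4987, 11021 and 11165. Replicate 1 was thus high at 938 bp, whereas it was low at the TSS, where its best rank was 19890 against 6941 and 6536 in replicates 2 and 3.

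The signal transducer gene smo is the shortest of the 10, at 4586 bp, and none of its 4 IDR summits was inside it. All were classed as promoter, of other genes. They lay 133 bp from the TSS of CG17075, 21 bp from that of CG11601, and 136 and 86 bp from TSSs of CG3625. The signals were 351, 146, 166 and 381 in that order, and the distances to the smo TSS ran from 5708 to 9944 bp. The CG11601 summit was not listed in replicate 1 and ranked 6885 and 5547 in replicates 2 and 3. Although the density of 2 per 10 kb was above 88.1% of protein-coding genes, it came from the neighbours' promoters.

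Among the effectors, arm, the beta-catenin gene, had 4 IDR summits. The intron summit, 1928 bp downstream of the closest of its 4 TSSs, had a signal of 249, and its ranks were 2468, 3137 and 3552. The own-promoter summit, 101 bp upstream of a TSS, had a signal of 106 and was in overlap with peaks of rank 6010, 9256 and 6961. Another pooled summit, 2 bp from a TSS of arm, had a signal of 85.2 and was outside the IDR set at rank 9244. The remaining pair lay at other promoters, 81 bp from the TSS of Edem1 with a signal of 278 and 13 bp from that of Rbcn-3B with a signal of 143. The transcription factor gene ci, on chromosome 4, had 1 summit, 3332 bp upstream in an antisense RNA exon. Its signal was 122 and its ranks were 6646, 5875 and 7426, within the strongest 8424 in every replicate. With 0.483 summits per 10 kb, ci was just under the median gene, although 13 weaker pooled summits filled its territory.

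**Figure D2:**
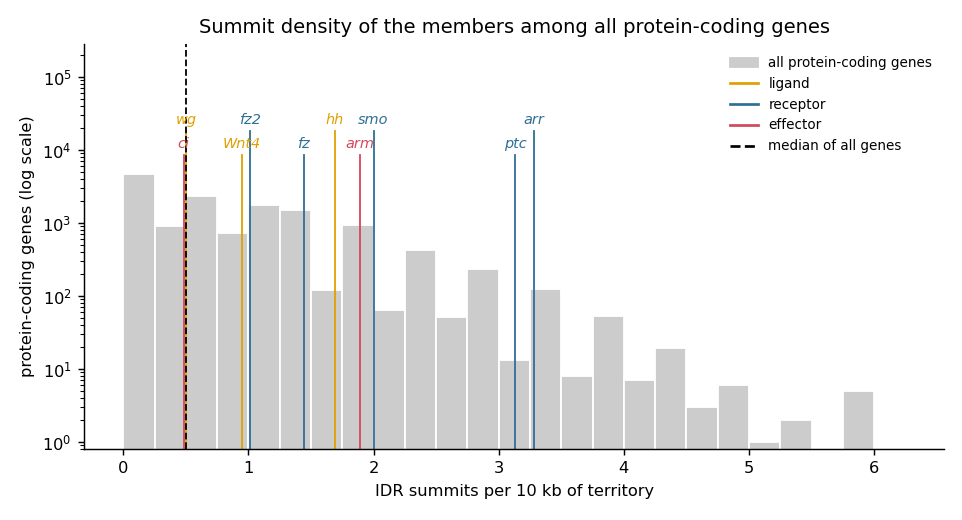
Grey bars count the protein-coding genes (log scale) by IDR summits per 10 kb of territory, and coloured lines mark the 10 members by role. The dashed line is the median of all genes, 0.5, and arr and ptc stand at 3.28 and 3.13.

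The members had a median of 1.56 summits per 10 kb and all protein-coding genes 0.5. In number the medians were 4 and 1, and in both measures 8 of the 10 members were above the median gene. The members' territories were longer, with a median of 24656 bp against 20001 bp and a mean of 41540 bp against 23652 bp. In the strongest peaks of replicates 1, 2 and 3, the members had 1.54, 1.35 and 1.61 summits per 10 kb, while the territories of all other protein-coding genes together had 0.679, 0.69 and 0.686. The difference averaged 0.816 ± 0.14 per 10 kb (SD, n = 3) and was positive in 3 of 3 replicates, with p = 0.25 in an exact two-sided sign-flip permutation test, the smallest p that 3 replicates allow. The design can therefore not reach 0.05. This p concerns only whether the difference repeats between replicates, and the spread between genes is not part of it. The list was set by name with earlier results known, and the difference describes these 10 genes only.

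By class, the 64 summits as a set differed from the whole IDR set. Intron summits were 44 of 64, or 68.8% (exact 95% interval 55.9 to 79.8%), against 41% of all IDR summits, and all 44 lay in an intron of the member itself. By gene, fz held 13 of the 44, arr 12, fz2 10, ptc 5, Wnt4 2, wg 1 and arm 1. No intron summit lay in the territories of hh, smo and ci. The intron share thus rests mostly on fz, arr and fz2 and does not describe each member. Promoter summits were 9 of 64, or 14.1% (6.64 to 25%), against 39.3%. Intergenic summits were 10, or 15.6% (7.76 to 26.9%), against 17.3%, and exon summits 1, or 1.56%, against 2.39%. These intervals cover counting error only, and summits of 1 gene are not independent. By role, the 51 receptor summits were 78.4% intron, 11.8% promoter and 9.8% intergenic. Of the 8 ligand summits, 5 were intergenic and 3 intron, with none at a promoter (exact 95% upper bound 36.9%). The 5 effector summits were 3 promoter, 1 exon and 1 intron. Of the 9 promoter summits, only 2 were at a member's own TSS, 1 in a receptor and 1 in an effector. The other 7 were at promoters of other genes, 5 in receptor and 2 in effector territories. In all, 7 members had an intron summit in the territory, while 26.9% of all protein-coding genes did, and 7 had a summit inside the gene, against 16.3%. These counts were not matched for gene length.

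The DNA at hand differs too, so summits were set per base of each class. Introns made up 62.5% of the members' territories and 45% of those of other protein-coding genes, and promoters 9.92% and 15.3%. In intron DNA the members had 1.73, 1.35 and 1.85 summits per 10 kb in replicates 1, 2 and 3, against 0.683, 0.593 and 0.642 for other genes. The difference was 1.01 ± 0.23 (SD, n = 3; exact sign-flip permutation p = 0.25, two-sided), positive in 3 of 3 replicates. In intergenic DNA the members had 2.13, 1.42 and 1.6 summits per 10 kb, and other genes 0.601, 0.483 and 0.504. That difference was 1.19 ± 0.308, again positive in 3 of 3 replicates (exact p = 0.25). In promoter DNA, which includes promoters of any gene in a territory, the members had 1.46, 2.91 and 2.43, and other genes 1.64, 2.11 and 1.93. There the difference of 0.369 ± 0.501 was smaller than its spread and negative in replicate 1 (exact p = 0.5). The larger density of the members was thus measured in introns and between genes, and at promoters it did not exceed the spread between replicates. Intron density was 5.71 per 10 kb of intron at ptc and 4.53 at arr. It was 1.63 at arm, 1.62 at wg, 1.48 at fz, 1.18 at fz2 and 1.15 at Wnt4, and hh, smo and ci had no intron summit. These per-class comparisons were added after the data were seen.

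**Figure D3:**
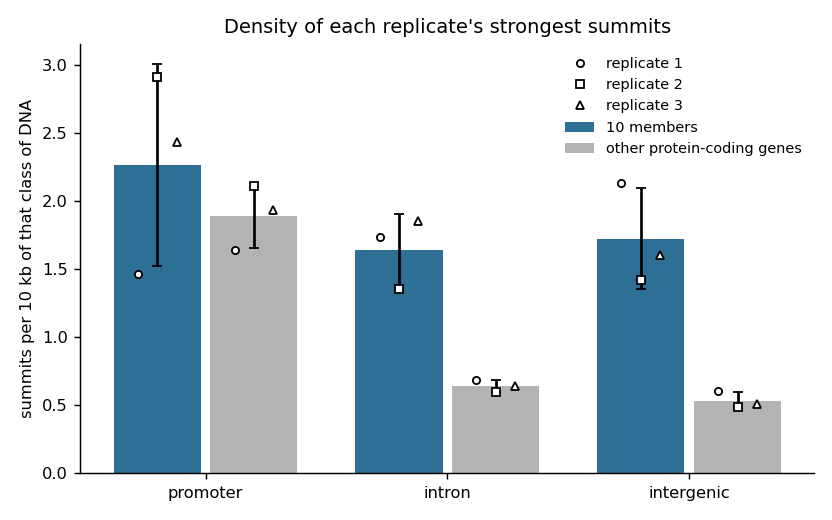
Bars give the mean number of summits per 10 kb of promoter, intron or intergenic DNA over the 3 replicates' strongest peaks, blue for the 10 members and grey for other protein-coding genes, with the SD as error bar and the replicates as open symbols. The members' symbols lie above all those of other genes for intron and intergenic DNA, and the symbols overlap for promoters.

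At the genes' own promoters, the count of members depended on the list. In the IDR set, 2 of the 10 had a summit within 500 bp of an own TSS, against 24.3% of all protein-coding genes, a share near the background. In the strongest peaks of replicate 1 the count was 1 (arm), against 22.1% of all genes. In those of replicate 2 it was 5 (fz2, arr, ptc, smo and arm), against 27.5%, and in those of replicate 3 it was 3 (fz2, ptc and arm), against 25.5%. The pooled list of 30000 peaks, which reaches into background, had 8, all but arr and smo, against 42.5%. At smo a summit 146 bp from the TSS ranked 4871 in replicate 2, and neither replicate 1 nor replicate 3 listed any within 500 bp. At arr the best rank was 5456 in replicate 2 and 27348 in replicate 3, and replicate 1 listed none. At hh, replicate 2 listed one at rank 9977 and replicate 3 at rank 25216, while replicate 1 had none. In 7 of the 10 genes replicate 2 thus gave the best rank, the exceptions being Wnt4, ptc and arm, and replicate 1 lacked a summit at 5 genes. The number of reads behind each library is not in the lists, so depth as a source of these gaps was not tested.

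**Figure D4:**
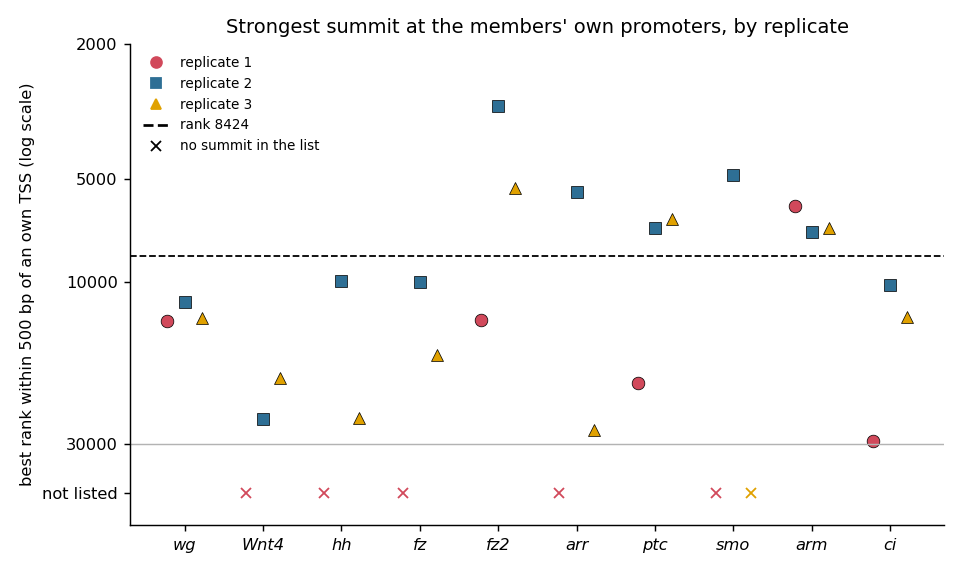
For each gene, symbols give the best rank of a summit within 500 bp of an own TSS in each replicate's list (log scale, strongest at the top), and crosses mark lists without one. The dashed line is rank 8424. Only arm lies above it in all 3 replicates, and crosses stand at Wnt4, hh, fz, arr and smo. The arm symbol of replicate 2 belongs to another arm TSS than those of replicates 1 and 3. At the arm IDR summit, replicate 2 ranked 9256.

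The 64 IDR peaks of all classes were then followed through the replicates. Of these, 42 (65.6%) overlapped one of the strongest 8424 peaks in all 3 replicates, against 66% of the whole IDR set, a share near the background. By replicate, 85.9%, 76.6% and 96.9% of the members' peaks were found, against 82.1%, 84% and 89.3% of all IDR peaks, so replicate 2 was the low one for the members. The peaks that replicate 1 did not list at all were 3, at fz2, arr and smo, and both other replicates listed all 64. Some neighbouring summits overlapped the same replicate peak, as in the upstream pair of fz. Over the peaks, Spearman's rho of the ranks was 0.78 between replicates 1 and 2 (n = 61), 0.88 between 1 and 3 (n = 61) and 0.88 between 2 and 3 (n = 64). Over all IDR peaks it was 0.75, 0.84 and 0.81. These values describe peaks of 3 libraries that share 1 control, and the IDR set was selected for such likeness.

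**Figure D5:**
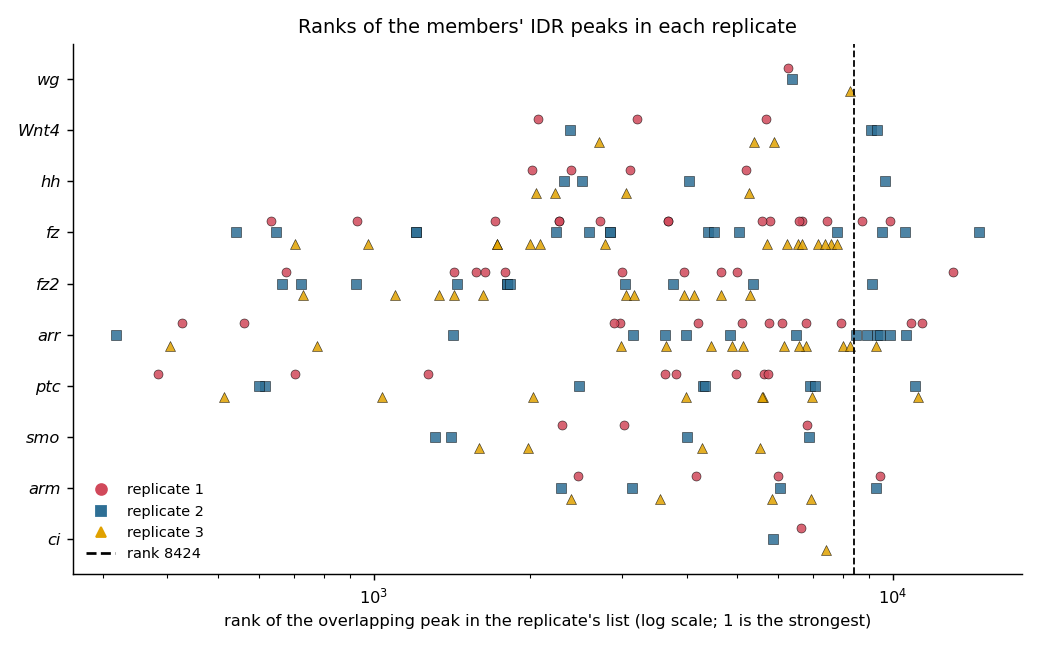
Each symbol is 1 IDR peak's rank in 1 replicate (log scale, strongest at the left), in rows by gene, and the dashed line is rank 8424. Each of arr, ptc, fz and fz2 has a peak among the first 1000 of every replicate, whereas the peaks of wg and ci rank between 5875 and 8243.

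The members' peaks were of middling strength. Their signal had a median of 168 and ran from 99 to 841, against a median of 180 and a range of 93.7 to 4484 in the IDR set. None was among the strongest 100 IDR peaks, 1 was among the strongest 500 and 7 among the strongest 1000. As a share, 7 of 64 is close to the 1000 of 8424 in the whole IDR set, so this count is near the background. The share of 1 in 64 is below 500 of 8424 and rests on a single peak. The 7 among the strongest 1000 belonged to arr, fz, fz2 and ptc, 6 in introns and 1 upstream. The median distance to the closest TSS of any gene was 4534 bp for the members and 1041 bp for all IDR summits. Of the pooled summits in the territories, 32.3% of 198 were in the IDR set, against 28.1% of all 30000. The 134 weaker ones were 65.7% intron, against 46% of all such summits, and 14.2% promoter, against 24%. Another 14.9% were intergenic, against 24.4%, and 5.22% exon, against 5.55%.

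Known binding motifs near the 64 summits were counted on both strands beside those of the whole IDR set, and no motif contains another. GAGAG was within 100 bp of 15 (23.4%), against 23% of all IDR summits, and TGTCA of 16 (25%), against 27%. CTTTGAT of Pan was near 2 (3.12%), at ptc and fz2, against 3.76%. TGGGTGGTC of Ci was near 1 (1.56%), at hh, against 0.0356%, which rests on a single summit. TATCGATA, the element of the promoter factor Dref, was near 0, against 2.64%.

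Other genes of the same pathways were counted in the same way. Of 35 other Wnt pathway genes, 15 (42.9%) had an IDR summit at an own promoter, against 24.3% of all protein-coding genes. Anywhere in the territory, 32 (91.4%) had one, against 67.5%. Their median density was 1 per 10 kb, against 0.5 for all protein-coding genes. In the strongest peaks of replicates 1, 2 and 3 the promoter counts were 15, 15 and 14. Of all protein-coding genes, 22.1%, 27.5% and 25.5% had such a promoter summit. The strongest promoter signals were 2135 at gish, a casein kinase I gene, 1157 at sgg, the GSK3 kinase that marks Arm for destruction, 1031 at gro, the Groucho corepressor gene, and 455 at fz3, another frizzled gene. Of 25 other Hedgehog pathway genes, 9 (36%) had a promoter summit, against 24.3% of all protein-coding genes. In the territory 19 (76%) had one, against 67.5%, and the median density was 0.863 per 10 kb, against 0.5. Their promoter counts were 7, 11 and 9 in the replicates, against the same 22.1%, 27.5% and 25.5% of all genes. The strongest were sgg, counted in both lists, then rdx, whose product directs Ci to degradation, with a signal of 994. Next came sotv, a heparan sulfate synthesis gene, with 461, and dlp, a glypican gene also in both lists, with 297. No test of these lists was made, and nothing particular to them is drawn from the counts.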

How the data were processed

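ChIP-seq peak lists of 3 libraries were used, with 1 list per replicate, 1 of the pooled replicates and 1 optimal IDR set, all in dm6. Per the labels, chromatin was sonicated and fragments of 200 to 800 bp were kept. The signal of each peak is the score that the authors deposited in the narrowPeak lists, and it was used only to rank or describe peaks within a list. For the aligner, the peak caller and the threshold of the IDR step, the name or value is not given in the sources used here. Neither the dm3 lists nor the control library was analysed here. Depth per library is unknown because peak lists hold no read counts, and the replicates share 1 control alignment. Each relaxed list ends at 30000 peaks, so a gene without a summit may still have weaker enrichment.

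The 8424 IDR peaks are the 8424 strongest of the pooled list, and as many of each replicate's strongest peaks were taken for comparison. Summits were written as 1-based positions and classed by the gene models of Ensembl release 115 for this assembly, and sequences came from the RefSeq assembly of the same build. Peaks were shared when the overlap was at least 50% of either peak. Exact intervals are Clopper-Pearson. All members were named. Of each other list, the 4 genes with the strongest own-promoter summit were named, and so was the gene of the closest protein-coding TSS for summits at other promoters. Sequences followed the strongest summit outside 2R, and the strongest intron summit where that was another. The members, lists and motifs were chosen with earlier results of these data known. The steps were tested on simulated positions and peaks. Python 3.11.15, numpy 2.4.6, pandas 2.3.3 and matplotlib 3.10.9 were used.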

Additional observations from a re-analysis of the deposited data

How the results depend on the processing

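The tagged line and the pooled lists limit these results: 3 replicates of 1 group, no untagged animals, and lists without read counts. No paired analysis was possible because the labels give 1 group, so replicate numbers pair no samples across groups. The density difference was taken within each replicate. Of 90 values under other settings, 45 were counted as the same, 45 as moved and 0 changed sign. To be the same, counts had to stay within 1.5 times, and shares and role densities within 1 SD. The density difference had only to keep its sign, so all 6 of its alternatives count as the same. Among these it rose from 0.816 to 2.32 with all peaks of each replicate's list. Effector densities had an SD of 0, so any change counted as moved.

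The density difference kept its sign in all alternatives, also with intron, promoter or intergenic bases alone (1.01, 0.369 and 1.19). The 64 summits became 30 in the stronger 50% of the IDR set, 42 for peaks found in all 3 replicates and 32 where the member's TSS was the closest coding one. They were between 42 and 54 without 1 replicate. For these counts, shares and role densities, leaving out 1 replicate did not remake the IDR set. It kept the IDR peaks found in the strongest lists of both other replicates, so a drop is partly due to this filter. The 2 members with an own-promoter summit became 0 in the stronger 50% and 0 for peaks found in all 3 replicates, 4 with a promoter window of 1000 bp, and 0 to 1 without 1 replicate. The promoter share of 14.1% became 5.66% with a reach of 5000 bp, 6.25% for closest-TSS summits, 21.9% with the 1000 bp window and 3.12% with the members' own TSSs only. The intron share of 68.8% became 83% and 57.8% with a reach of 5000 and 20000 bp, 63.3% in the stronger 50%, 62.5% for closest-TSS summits and 60.9% with the 1000 bp window. The intergenic share of 15.6% became 9.43% and 22.9% with those reaches, 23.3% in the stronger 50%, 19% for peaks found in all 3 replicates, 28.1% for closest-TSS summits and 16.3% to 19% without 1 replicate. Ligand, receptor and effector densities became 0.53, 0.805 and 0.478 per 10 kb in the stronger 50%, and 0.662, 1.14 and 0.717 for peaks found in all 3 replicates. Closest-TSS summits gave 0.927 for ligands, 0.738 for receptors and 0.717 for effectors, which turns round the order of ligands and receptors, and reaches of 5000 and 20000 bp gave effectors 1.05 and 1.1. Without 1 replicate the densities were 0.662 to 1.06 for ligands, 1.14 to 1.41 for receptors and 0.717 to 0.956 for effectors. Requiring 50% of both peaks left 23 of the 42 peaks found in all 3 replicates. The causes were not tested.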
